A study of Mus musculus with 12 samples.

Results

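Mitochondrially encoded genes are the genes carried by the mitochondrial genome itself rather than by the chromosomes of the nucleus. They were found as every gene symbol that starts with mt- in all 12 deposited tables, which gave 37 of 54735 symbols. Of these, 13 encode proteins, 2 encode ribosomal RNAs and 22 encode transfer RNAs. Both ribosomal RNA genes and all 13 protein genes had a mean of at least 1 TPM over the 12 libraries and were tested, and all 22 transfer RNA genes were listed at 0 in every library. TPM is a transcript abundance scaled for gene length and for the library's sum, so levels of different genes can be set side by side.

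The libraries came from the dorsal telencephalon (pallium, the part of the forebrain that forms the cortex) of 12 mouse embryos at stage E13.5, all labelled as strain C57/Bl6. The 4 control embryos had the genotype Rnu11wt/flx::Trp53wt/wt::Emx1-Cre+, the 4 cKO embryos Rnu11flx/flx::Trp53wt/wt::Emx1-Cre+, and the 4 dKO embryos Rnu11flx/flx::Trp53flx/flx::Emx1-Cre+. All 12 embryos thus carried Emx1-Cre and at least 1 floxed Rnu11 allele, and the controls were heterozygous. Rnu11 encodes U11, a small RNA with which the minor spliceosome recognises the few introns it excises, and Trp53 encodes p53. Emx1-Cre recombines in cells of the Emx1 lineage, so that blood, vessel, meningeal and microglial cells of the same tissue keep both genes. The labels do not say which embryos shared a litter, and p-values here measure the spread between these embryos.

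The mitochondrial genome is transcribed from both of its strands into long precursor RNAs, which are cut apart largely at the transfer RNAs that lie between the other genes. Its messenger RNAs all encode subunits of the respiratory chain and ATP synthase, and its ribosomal and transfer RNAs serve the translation of those messengers inside the organelle. Mitochondrial genes have no introns. In the annotation (GENCODE M21, build mm10), 12 of the 13 protein genes, both ribosomal RNA genes and 14 transfer RNA genes lay on the plus strand of chromosome M. mt-Nd6 and 8 transfer RNA genes lay on the minus strand.

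The genotype labels were checked on the deleted genes. Rnu11 averaged 640.5 ± 86.4 TPM in the controls, 144 ± 20.4 in the cKO embryos and 164 ± 26.3 in the dKO embryos (SD, n = 4 each), and no mutant embryo overlapped with a control embryo. Trp53 averaged 3.82 ± 1.73 TPM in the controls, 4.24 ± 0.404 in the cKO embryos and 1.22 ± 0.252 in the dKO embryos (SD, n = 4 each). All 9 pallial markers examined, among them Emx1, Pax6 and Tbr1, were above 0 in every library. Their summed level was 182 to 199 TPM in control, 185 to 215 in cKO and 122 to 173 in dKO, so that every dKO embryo lay below every embryo of the other groups. Of the 9, 2 were lower and 0 higher in dKO than in control (3.4% of all genes lower, 1.79% higher). These were Eomes, a marker of intermediate progenitors (log2 difference -0.57, limma adjusted p = 0.0181), and Neurod6, a marker of cortical neurons (-0.63, limma adjusted p = 0.0374). With libraries scaled to an equal sum of nuclear protein-coding genes, Neurod6 did not pass (limma adjusted p = 0.0586). Eomes and Neurod2 were lower after that scaling (3.74% of all genes lower). In dKO against cKO 3 of the 9 were lower and 0 higher (38.8% of all genes lower, 0.612% higher). In cKO against control 1 was higher and 0 lower (34.3% of all genes higher, 1.09% lower). After the scaling, 2 were lower and 0 higher in dKO against cKO (8.28% of all genes lower). In cKO against control 0 were then higher (11.3% of all genes) and 1 lower, Sox2 (1.74% of all genes). Structural nuclear RNAs took between 497314 and 587774 of each library's 1000000 TPM, most of it in Rn7s2 and Rn7sk, and all other genes share the rest of that total. The depth behind the values is unknown because TPM keeps no read counts.

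Mitochondrial ribosomal RNA was the most variable class, and 3 libraries stood apart from the other 9. mt-Rnr1, the 12S RNA of the small mitochondrial ribosomal subunit (chrM:70-1024), stood at 4998, 956, 239 and 336 TPM in control embryos 1 to 4. In the cKO embryos 1 to 4 it stood at 428, 287, 492 and 424 TPM. In the dKO embryos 1 to 4 it stood at 423, 14817, 589 and 368 TPM. Control 1, control 2 and dKO 2 were therefore the highest of the 12, and the other 9 libraries lay between 239 and 589 TPM, with all 3 genotypes among them.

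mt-Rnr2, the 16S RNA of the large subunit (chrM:1094-2675), ordered the libraries in the same way at its upper end. It stood at 15489.7, 7638, 2535 and 3065 TPM in control 1 to 4, at 4267, 2823, 4635 and 4025 in cKO 1 to 4, and at 3853, 31075, 4150.0 and 3695 in dKO 1 to 4. The same 3 libraries were highest, and no other library passed 4635 TPM. Together both ribosomal RNAs made up 4.59% of dKO 2, 2.05% of control 1 and 0.859% of control 2, against 0.277% to 0.513% of the other 9 libraries.

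**Figure D1:**
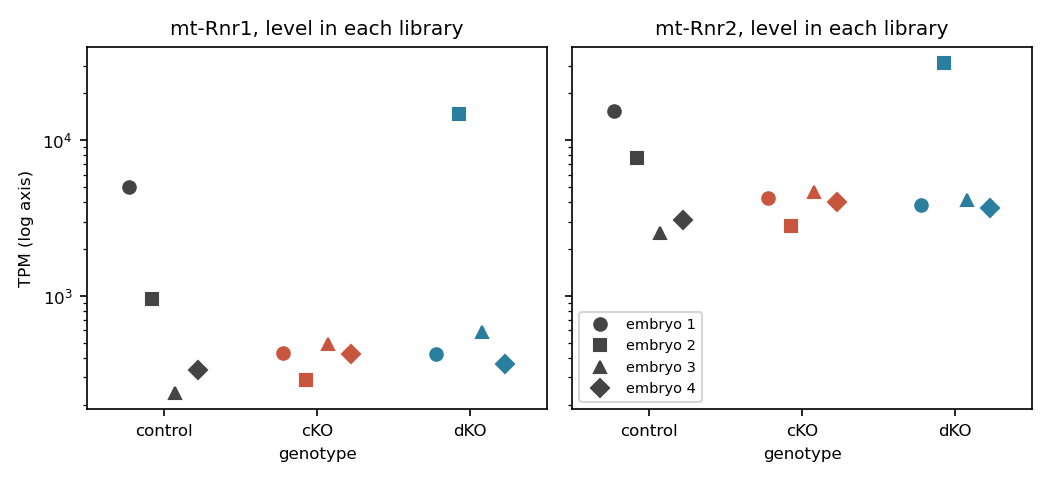
TPM of mt-Rnr1 and mt-Rnr2 in each of the 12 libraries (log axis), grouped by genotype. Control 1, control 2 and dKO 2 lie above all others for both genes, and dKO 2 reaches 14817 and 31075 TPM.

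The libraries with the most ribosomal RNA also differed in the balance between mitochondrial RNAs. The ratio of mt-Rnr2 to mt-Rnr1 was 2.10 in dKO 2 and 3.10 in control 1, and lay between 7.05 and 10.6 in the other 10 libraries, with control 2 at 7.99. Summed ribosomal RNA exceeded the summed protein messengers 5.39-fold in dKO 2 and 2.75-fold in control 1, against 0.452-fold to 1.28-fold elsewhere. The messenger sum leaves out values listed on near-identical nuclear copies, described below, so this ratio rests on how reads were divided between genes and copies. The ratio of mt-Nd6, the minus strand messenger, to mt-Cytb, its plus strand neighbour, was 0.332 in dKO 2 and 0.298 in control 1, and 0.177 to 0.235 in the others. dKO 2 also had the highest level of 8 of the 13 protein messengers and the lowest number of genes above 0 (24574, against 25418 to 29300). Whether library preparation or RNA quality takes part in these differences was not tested.

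Between genotypes, the ribosomal RNAs did not pass the test in any comparison. For mt-Rnr1 the difference on the log2(TPM + 1) scale was -0.98 in cKO against control (SE 1.13, 95% interval -3.42 to 1.47), 0.45 in dKO against control (SE 1.13) and 1.43 in dKO against cKO (SE 1.13, 95% interval -1.01 to 3.87). For mt-Rnr2 the same differences were -0.51, 0.25 and 0.76 (SE 0.69 each). The limma adjusted p for mt-Rnr1 was 0.491, 0.875 and 0.313 in that order, and for mt-Rnr2 it was 0.559, 0.888 and 0.380. The spread within genotypes was large for both. The residual SD on the log2 scale was 1.86 for mt-Rnr1 and 1.13 for mt-Rnr2, against a median of 0.18 over the 760 genes above 50 TPM. In bulk tissue, fewer cells of a type and less RNA per cell cannot be told apart, here and in every result that follows.

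The direction for the summed ribosomal RNA depended on the 3 high libraries. With all 12 libraries, the log2 of the sum differed by -0.58 between cKO and control, 0.30 between dKO and control and 0.88 between dKO and cKO, and all groups overlapped. Without control 1, control 2 and dKO 2, a comparison added after these values were seen, the same differences were 0.48, 0.50 and 0.03. The 3 libraries were left out for their ribosomal RNA itself, so the second set of values is a description and no test of ribosomal RNA is given on it.

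The protein messengers, by contrast, took 0.363% to 0.933% of each library and their sums overlapped between all genotypes. The summed level was 6119 ± 1403 TPM for the controls, 6448 ± 1985 for cKO embryos and 5687 ± 2133 for dKO embryos (SD, n = 4 each). On the log2 scale the sums differed by 0.06 between cKO and control, -0.15 between dKO and control and -0.21 between dKO and cKO. The first of these turned to -0.09 and the last to 0.01 when libraries were scaled to an equal sum of nuclear protein-coding genes, so no direction is given for the class. All these sums leave out values listed on the near-identical nuclear copies described below. With the whole-length copies added, the 3 differences were 0.06, -0.12 and -0.18, with all groups overlapping. The SD within genotypes was then 0.16 to 0.23 on the log2 scale, instead of 0.36 to 0.53.

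Complex I, NADH dehydrogenase, takes electrons from NADH, and 7 of its subunits are mitochondrially encoded. mt-Nd1 (chrM:2751-3707) was the most abundant of them, at 751, 679, 472 and 473 TPM in control 1 to 4, 562, 583, 645 and 663 in cKO 1 to 4, and 405, 785, 535 and 504 in dKO 1 to 4. The lowest and the highest of the 12 values were both dKO embryos, and all genotypes overlapped. mt-Nd2 (chrM:3914-4951) ranged from 63.8 TPM in dKO 1 to 210.2 in dKO 2, with a mean of 115.

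mt-Nd5 (chrM:11742-13565), another complex I subunit, stood at 107, 81.5, 63.6 and 65.2 TPM in control 1 to 4, 69.1, 72.8, 77.0 and 83.4 in cKO 1 to 4, and 48.9, 138, 126 and 63.2 in dKO 1 to 4. dKO 2 and dKO 3 lay above all other libraries and dKO 1 below all. mt-Nd4 (chrM:10167-11544) showed the same pair at the top, with 175 TPM in dKO 2 and 135 in dKO 3 against 41.7 to 103 in the other 10. Relative to mt-Nd1, mt-Nd4 was 0.253 in dKO 3 and 0.223 in dKO 2, and 0.103 to 0.160 elsewhere. dKO 3 differed from dKO 2 in its ribosomal RNA, which was 0.474% of the library.

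mt-Nd6 (chrM:13552-14070), the complex I subunit read from the other strand, stood at 172, 123, 83.8 and 73.7 TPM in control 1 to 4, 98.7, 84.0, 100.3 and 112 in cKO 1 to 4, and 66.0, 204, 97.4 and 87.6 in dKO 1 to 4. Its highest libraries were the 3 that were also highest in ribosomal RNA, which held for mt-Nd1 and mt-Cytb on the plus strand too. It overlaps the end of mt-Nd5 by 14 bases on the opposite strand. Whether the counting kept the strands apart is not given in the sources used here.

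Complex III and complex IV pass electrons on from ubiquinol to cytochrome c and from cytochrome c to oxygen. mt-Cytb (chrM:14145-15288), the only complex III subunit encoded in the mitochondrion, averaged 465 ± 114 TPM in the controls, 478 ± 30.3 in the cKO embryos and 435 ± 138 in the dKO embryos (SD, n = 4 each). Its 12 values ran from 281 in dKO 1 to 614 in dKO 2, and the 4 cKO embryos lay inside the range of both other groups.

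mt-Co1 (chrM:5328-6872), the catalytic subunit of complex IV (cytochrome c oxidase), was the steadiest mitochondrial gene as deposited. It stood at 1339, 1474, 1360.4 and 1143 TPM in control 1 to 4, at 1389, 1479.7, 1694 and 1477 in cKO 1 to 4, and at 970.1, 1308, 1226 and 1313 in dKO 1 to 4. All dKO embryos lay below all cKO embryos, and the controls overlapped with both. Gm29216, a nuclear gene that matches a part of mt-Co1 and is described with the other copies, was higher than mt-Co1 in every library, at a mean of 2967 TPM. The plain sums of both values were 3607 to 4891 TPM in control, 3624 to 5775 in cKO and 3431 to 4496 in dKO. Gm29216 has 492 bases and mt-Co1 1545, and TPM divides by length, so these sums overweight the copy's reads. Their overlap between all genotypes therefore cannot tell whether the genotypes overlap once the copy is counted at the length of mt-Co1. For mt-Co1 as deposited, the highest of the 12 values was 1.75 times the lowest, and the residual SD was 0.16 on the log2 scale.

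Complex V, ATP synthase, has 2 mitochondrially encoded subunits, whose genes share bases. mt-Atp8 (chrM:7766-7969) had the highest mean of all protein messengers as deposited, with 2476, 2249.8, 1396 and 1398 TPM in control 1 to 4, 1597, 1690.2, 2294 and 1843 in cKO 1 to 4, and 925, 2910.5, 1398 and 1484 in dKO 1 to 4. mt-Atp6 (chrM:7927-8607) begins inside it, and both are read from the same messenger. The end of mt-Atp8 and the start of mt-Atp6 are shown from the GENCODE M21 transcripts because the 43 capitals are the bases that both genes claim:
mt-Atp8, 3' end: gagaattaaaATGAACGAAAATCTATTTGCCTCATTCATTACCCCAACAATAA
mt-Atp6, 5' start: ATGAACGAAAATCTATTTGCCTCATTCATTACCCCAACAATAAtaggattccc
mt-Atp6 was listed at a mean of 245 TPM, below the 1805 TPM of mt-Atp8. mt-Atp6 also has a near-identical annotated copy in the nuclear genome, Gm10925, which begins with the same 43 bases. For mt-Atp8 no such copy was found among annotated transcripts, and unannotated nuclear sequence was not searched.

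**Figure D2:**
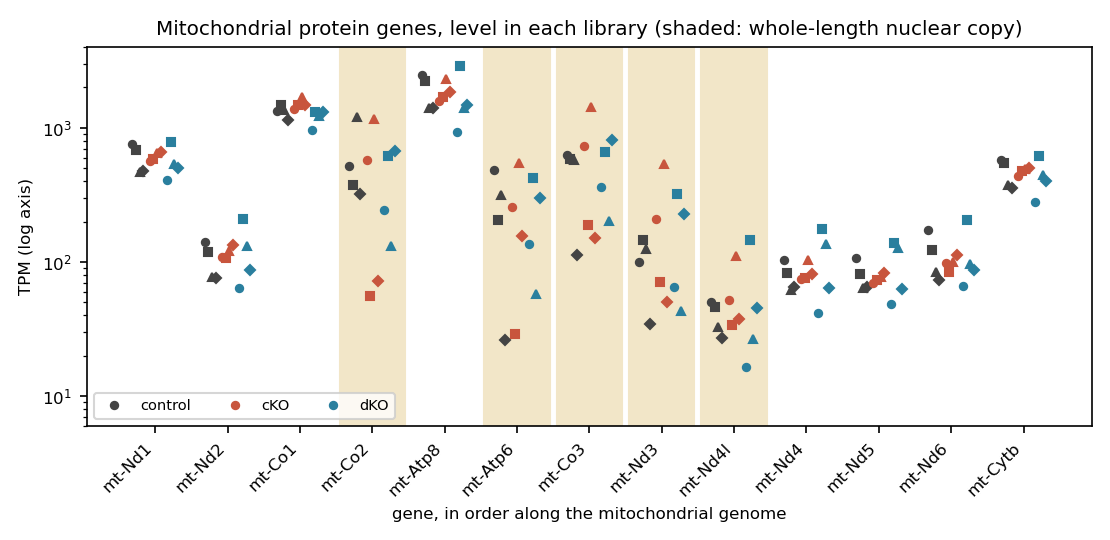
TPM of the 13 mitochondrial protein genes in each library (log axis), in their order along the mitochondrial genome, with shading on the 5 genes that have a whole-length nuclear copy. The shaded genes spread 8.83-fold to 21.8-fold between the lowest and highest library and the others 1.75-fold to 4.19-fold.

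Ordered by their mean over the 12 libraries, the messengers ran from mt-Atp8 (1805 TPM) and mt-Co1 (1348) through mt-Nd1 (588), mt-Co3 (537), mt-Co2 (495) and mt-Cytb (459) to mt-Atp6 (245), mt-Nd3 (161), mt-Nd2 (115), mt-Nd6 (109), mt-Nd4 (88.7), mt-Nd5 (83.0) and mt-Nd4l (52.0). Neighbours in this order overlapped over the libraries, with the exception of mt-Co1 and mt-Nd1, where the lowest mt-Co1 value (970.1 TPM) lay above the highest mt-Nd1 value (785). The position of mt-Co1, mt-Co2, mt-Co3, mt-Atp6, mt-Nd3, mt-Nd4 and mt-Nd4l in it rests on how reads were divided between each gene and its copy. With their whole-length copies added, mt-Co3 (4051 TPM) and mt-Co2 (3483) had higher means than mt-Atp8. mt-Co1 is not ranked in this way, because its copy matches only a part of it and TPM divides by length.

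These copies lie in a block of mitochondrial sequence on chromosome 1 (chr1:24611535-24616197, mm10, minus strand), which is annotated as 7 unprocessed pseudogenes over 4663 bases. Transcript sequences of the mitochondrial genes and of all other annotated genes were aligned to find them. mt-Co2 and Gm28661 were identical over 681 bases, mt-Atp6 and Gm10925 over 678, mt-Co3 and Gm28437 over 783, and mt-Nd4l and Gm10222 over 294. mt-Nd3 and Gm28438 differed at 1 of 345 bases, T3C, counted from the 5′ end of mt-Nd3. The copies of 2 further genes covered only a part: Gm28439 matched 876 of the 1378 bases of mt-Nd4 and Gm29216 matched 483 of the 1545 bases of mt-Co1 with 1 difference, A1066T. mt-Nd1, mt-Nd2, mt-Nd5, mt-Nd6, mt-Cytb and mt-Atp8 had no annotated copy of at least 98% identity over at least 100 bases. Unannotated sequence, such as that between the pseudogenes of the block, was not searched. Copies of lower identity on chromosome 2 (Gm13339 of mt-Nd2, Gm13340 of mt-Co1 and Gm13341 of mt-Co2) were low, and highest in dKO 3, at 10.2, 15.1 and 4.55 TPM against at most 4.93, 2.94 and 0.870 elsewhere.

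The first bases of 2 pairs are shown to make plain what a read would have to tell apart, with the differing base in capitals where there is one. mt-Nd3 is read from chrM:9459-9491 and Gm28438 from chr1:24613087-24613119. mt-Co3 is read from chrM:8607-8666 and Gm28437 from chr1:24613912-24613971.
mt-Nd3: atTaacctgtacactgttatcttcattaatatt
Gm28438: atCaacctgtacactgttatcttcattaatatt
mt-Co3: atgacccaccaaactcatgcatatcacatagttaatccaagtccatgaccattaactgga
Gm28437: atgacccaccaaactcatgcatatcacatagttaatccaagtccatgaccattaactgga
The stretch of mt-Co3 shown has no differing base, nor has any other part of the 783 aligned. A read from inside it fits both places equally well, and how such reads were assigned is not given in the sources used here.

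In the deposited tables the nuclear copies mostly had higher values than the mitochondrial genes they match. The copy stood above the mitochondrial gene in 58 of the 60 pairs of gene and library, the exceptions being mt-Co2 in control 3 and mt-Nd4l in cKO 3. The 7 copies together took 0.819% to 1.84% of each library, more than the 13 mitochondrial messengers in every library but cKO 3. cKO 3 had the lowest level of 6 of the 7 copies and the highest level of mt-Co1, mt-Co3, mt-Nd3 and mt-Atp6.

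mt-Co2 (chrM:7013-7696), the complex IV subunit that receives electrons from cytochrome c, shows the size of the spread. It stood at 517, 377, 1207 and 320.3 TPM in control 1 to 4, 573, 55.3, 1167 and 72.3 in cKO 1 to 4, and 245, 613, 131 and 667 in dKO 1 to 4. The largest and smallest values within cKO thus differed 21.1-fold, and all genotypes overlapped. Of the sum of mt-Co2 and Gm28661, the mitochondrial gene held 54.2% in control 3 and 1.33% in cKO 2.

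mt-Co3 (chrM:8607-9390), the third core subunit of complex IV, stood at 623, 588, 576 and 112 TPM in control 1 to 4, 732, 188, 1440.1 and 151 in cKO 1 to 4, and 363, 665, 202 and 806 in dKO 1 to 4. Control 4 lay far below the other controls, while its copy Gm28437 stood at 4175 TPM there, within the 2981 to 4230 of the other controls. Added to its copy, mt-Co3 came to 3604, 4817, 4376 and 4287 TPM in control 1 to 4, 3820, 4717, 3607 and 4973 in cKO 1 to 4, and 3456, 3715, 3836 and 3401 in dKO 1 to 4. The ratio of highest to lowest library was 12.9 for the gene and 1.46 for the sum.

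The other 3 whole-length pairs behaved in the same manner, with mt-Nd4l to a lesser degree. mt-Atp6 was lowest in control 4 (26.1 TPM) and highest in cKO 3 (543), and its sum with Gm10925 from 1357 to 2531. mt-Nd3 (chrM:9459-9806), a complex I subunit, was lowest in control 4 (34.4 TPM) and highest in cKO 3 (541), and its sum with Gm28438 from 1360 to 2417. mt-Nd4l (chrM:9877-10173), also of complex I, ranged from 16.5 TPM in dKO 1 to 146 in dKO 2, and its sum with Gm10222 from 139 to 502. Summed with its copy, mt-Atp6 had a mean of 1798 ± 372 TPM (SD, n = 12), next to 1805 TPM for mt-Atp8 of the same messenger.

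**Figure D3:**
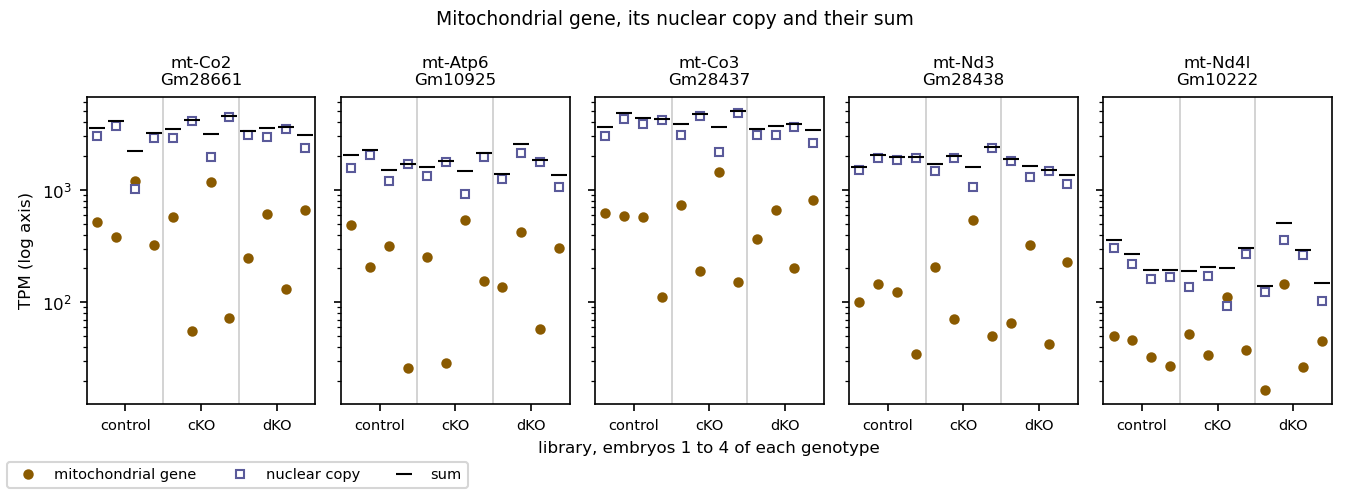
TPM (log axis) of the 5 mitochondrial genes with a whole-length nuclear copy, of that copy and of their sum in each library. The sum varies less than the gene, from 1.46-fold between lowest and highest library for mt-Co3 to 3.62-fold for mt-Nd4l.

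Adding each copy to its gene narrowed the spread within genotypes. The residual SD on the log2 scale went from 1.65 to 0.32 for mt-Atp6, from 1.49 to 0.26 for mt-Co2, from 1.25 to 0.17 for mt-Co3, from 1.31 to 0.21 for mt-Nd3 and from 0.91 to 0.59 for mt-Nd4l. The summed value for mt-Co3 was thus near the median of 0.18 over genes above 50 TPM, and mt-Nd4l stayed more variable. Summing was chosen after seeing the data, and the sum also counts any RNA made from chromosome 1 itself.

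No mitochondrial gene passed the test between cKO and control. Of the 15 tested members 0 were called at a limma adjusted p under 0.05, where 35.4% of all 11764 genes tested were called, and 0 had an unadjusted p under 0.05. Their median difference was 0.07 on the log2(TPM + 1) scale, against 0.25 over all genes, and 9 were positive and 6 negative. With libraries scaled to an equal sum of nuclear protein-coding genes, the all-gene median was 0.12 and 4 of the 15 members were positive, so neither sign nor rank of these small differences is fixed. The members' median also turned to -0.02 without control 3, -0.11 without control 4 and -0.05 without cKO 3. No member's genotype groups were free of overlap (33.7% of all genes were), and the 95% intervals of all 15 held 0. The steadier genes had narrower intervals, which cover only the spread between embryos. mt-Co1 differed by 0.19 (SE 0.13, -0.09 to 0.46) and mt-Nd1 by 0.07 (SE 0.20, -0.36 to 0.51). After the scaling they differed by 0.03 and -0.08. The value of mt-Co1 also rests on how reads were divided between it and its partial copy Gm29216.

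Between dKO and control, again 0 of 15 members were called, against 5.19% of all genes, and 0 had an unadjusted limma p under 0.05. The median difference was 0.13 on the log2 scale with 9 of 15 positive, against -0.01 over all genes. Its sign rested on single libraries: without dKO 2 the members' median was -0.30 with 0 of 15 positive, while the all-gene median was -0.03, and without control 3 or control 4 it was -0.12 or -0.20. With the nuclear copies added it was -0.06. mt-Co1 differed by -0.15 (SE 0.13, 95% interval -0.42 to 0.13), mt-Cytb by -0.12 (SE 0.22, -0.59 to 0.36) and mt-Nd2 by 0.16 (SE 0.31, -0.51 to 0.84). No member's groups were free of overlap, where 13.6% of all genes were. The lowest limma adjusted p over the members was 0.579, for mt-Co1.

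Between dKO and cKO, 0 of 15 members were called, where 39.4% of all genes were, nearly all of them lower in dKO (38.8% lower, 0.612% higher). mt-Co1 was the only member with an unadjusted limma p under 0.05. It stood at 1204 ± 161 TPM in dKO and 1509.9 ± 130 in cKO (SD, n = 4 each), a difference of -0.33 on the log2 scale (SE 0.13, 95% interval -0.61 to -0.06), with a limma p of 0.0207 and an adjusted p of 0.0517. It was also the 1 member of 15 whose groups did not overlap, which 33.2% of all genes did. The all-gene median was -0.26, near the value for mt-Co1, and with libraries scaled to an equal sum of nuclear protein-coding genes mt-Co1 differed by -0.11 (limma adjusted p = 0.683). Over 24 alternative fits mt-Co1 passed the threshold in 3, with limma adjusted p values from 0.0379 to 0.818. The members' median in this comparison was 0.08 with 8 of 15 positive, and it turned to -0.25 without dKO 2, to -0.19 without cKO 2 and to between -0.07 and -0.001 without dKO 3, dKO 4 or cKO 4. The comparisons share their control, cKO or dKO libraries with each other.

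**Figure D4:**
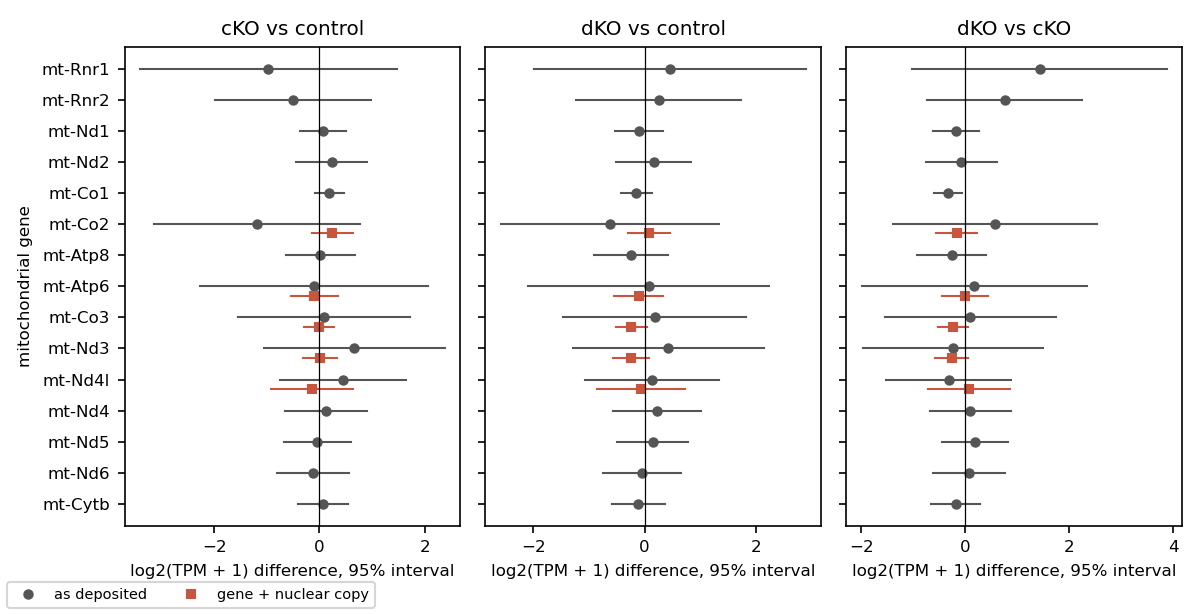
Differences on the log2(TPM + 1) scale with 95% intervals for the 15 tested mitochondrial genes in the 3 comparisons, as deposited and, for the 5 genes with a whole-length nuclear copy, after adding the copy. Of the 45 intervals as deposited, only that of mt-Co1 in dKO against cKO does not hold 0.

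With the copies added, the intervals of all 5 affected genes narrowed, and no comparison of a sum passed the test. In dKO against control, mt-Co3 with Gm28437 differed by -0.24 (SE 0.13, 95% interval -0.52 to 0.04, limma adjusted p = 0.333) and mt-Nd3 with Gm28438 by -0.25 (SE 0.15, limma adjusted p = 0.382). mt-Co2, which as deposited differed by -1.19 in cKO against control (SE 0.90), differed by 0.25 as a sum (SE 0.18, 95% interval -0.14 to 0.63). In cKO against control, the sums of mt-Co3 and mt-Nd3 differed by -0.003 (SE 0.13) and 0.01 (SE 0.15).

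Without control 1, control 2 and dKO 2, the members' values moved more than their calls. The libraries were chosen for mitochondrial ribosomal RNA, and both ribosomal RNAs are among the members. These libraries were also the 3 highest for mt-Nd1, mt-Cytb and mt-Nd6, and dKO 2 was highest for 8 of the 13 protein genes. The choice thus reaches the protein genes too, so the values below are a description and their p-values are no test. In cKO against control 0 of 15 were called (17.4% of all genes), and 14 were positive with a median of 0.40. mt-Nd1 differed by 0.37 and mt-Nd2 by 0.61 there. In dKO against control 0 of 15 were called (1.08% of all genes), and 11 were positive with a median of 0.17. mt-Nd1 differed by 0.02 and mt-Nd2 by 0.23 in that comparison. In dKO against cKO 1 of 15 was called (35.4% of all genes), and 3 were positive with a median of -0.25. This was mt-Atp8, lower in dKO by 0.56 on the log2 scale (95% interval -0.99 to -0.14, limma adjusted p = 0.0453), while with all 12 libraries it differed by -0.26 (SE 0.30, limma adjusted p = 0.504). Over all alternatives its limma adjusted p ran from 0.0453 to 0.986. mt-Co1 differed by -0.38 there (limma adjusted p = 0.0644).

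The 22 transfer RNA genes carry amino acids to the mitochondrial ribosome and are the points at which the precursors are cut. All 22 were listed at 0 in all 12 libraries, so no level, fold or comparison between genotypes can be given for them. Their length runs from 59 bases in mt-Ts2, a transfer RNA for serine that lacks the D arm, to 75 in mt-Tl1, a transfer RNA for leucine. Both are shown whole, from the GENCODE M21 transcripts, because they mark the limits of the lengths concerned (chrM:11613-11671 and chrM:2676-2750):
mt-Ts2: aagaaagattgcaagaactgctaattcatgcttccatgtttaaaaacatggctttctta
mt-Tl1: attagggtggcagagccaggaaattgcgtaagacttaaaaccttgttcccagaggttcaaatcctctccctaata
mt-Tl1 lies directly between mt-Rnr2 and mt-Nd1, whose lowest values over the 12 libraries were 2535 and 405 TPM.

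The zeros extended to short genes in general. Of all genes whose longest GENCODE M21 transcript is 59 to 75 bases, 801 were in the tables besides the mitochondrial transfer RNAs, among them 519 microRNAs and 111 small nucleolar RNAs, and 0 were above 0 in any library. The shortest gene above 0 in any library had 94 bases, and all 2010 genes below that length stood at 0. Of genes of 94 to 150 bases, 10.4% were above 0, and of genes over 1200 bases 96.1%. A value of 0 for a transfer RNA is therefore the value that every gene of its length had in these tables, whatever its class.

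**Figure D5:**
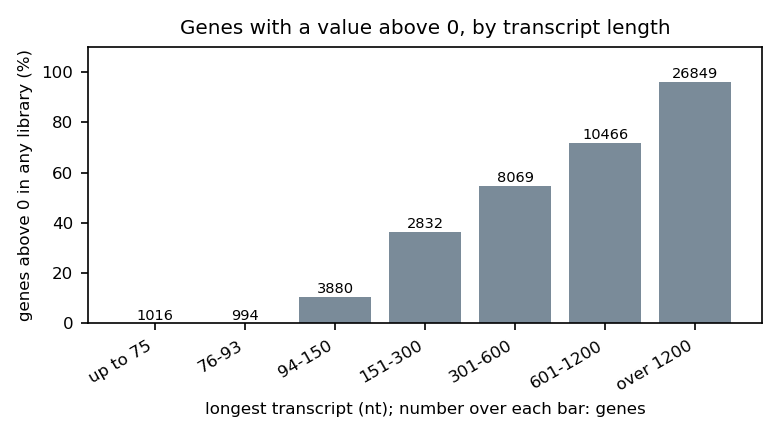
Percentage of genes above 0 TPM in any of the 12 libraries, by length of the longest transcript in bases. The length classes up to 93 bases, which hold all 22 mitochondrial transfer RNA genes, stand at 0%.

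Nuclear genes that copy, transcribe and process the mitochondrial genome were taken from lists written from general knowledge, 55 genes of which 49 were tested. In cKO against control 14 of the 49 were higher and 0 lower at a limma adjusted p under 0.05, where 34.3% of all genes were higher and 1.09% lower. In dKO against control 0 were called (1.79% of all genes higher, 3.4% lower). Between dKO and cKO the counts were 0 higher and 15 lower, against 0.612% and 38.8% of all genes. The median differences of the list were 0.17, 0.01 and -0.16, beside all-gene medians of 0.25, -0.01 and -0.26. With libraries scaled to an equal sum of nuclear protein-coding genes, 3 were higher in cKO than in control (11.3% of all genes), namely Esrra, Primpol and Top1mt.

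Of the 8 tested genes for mitochondrial transcription, 1 was higher in cKO than in control (34.3% of all genes). This was Mterf3, of the mitochondrial termination factor family, at 19.3 ± 2.41 TPM against 14.7 ± 1.85 in control (SD, n = 4 each, log2 difference 0.37, SE 0.12, limma adjusted p = 0.0296). After the scaling its limma adjusted p was 0.130. Tfam, which packages mitochondrial DNA and starts its transcription, averaged 26.8 ± 2.66 TPM in the controls, 26.5 ± 4.07 in the cKO embryos and 25.2 ± 2.84 in the dKO embryos (SD, n = 4 each). Polrmt, the mitochondrial RNA polymerase, stood at 3.52 ± 0.567, 3.94 ± 1.49 and 3.36 ± 0.734 TPM in the same order. Neither differed beyond its spread in any comparison (lowest limma adjusted p 0.666 for Tfam and 0.566 for Polrmt).

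Of the 18 tested genes for RNA processing and decay, 4 were higher in cKO than in control (34.3% of all genes). Lrpprc, which stabilises mitochondrial messengers, averaged 11.5 ± 1.22 TPM in the controls, 15.7 ± 2.30 in the cKO embryos and 11.3 ± 1.33 in the dKO embryos (SD, n = 4 each). Its log2 difference was 0.42 in cKO against control (SE 0.12, limma adjusted p = 0.0190) and -0.44 in dKO against cKO (SE 0.12, limma adjusted p = 0.0128). After the scaling, its limma adjusted p values were 0.0757 and 0.133. Of the 6 genes for ribosomal RNA modification 2 were higher in cKO than in control (34.3% of all genes). Among them was Rpusd4, a pseudouridine synthase, higher by 0.33 on the log2 scale (SE 0.08, limma adjusted p = 0.0121, after the scaling 0.0754).

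Of the 12 tested genes for mitochondrial DNA replication and nucleotide supply, 5 were higher in cKO than in control (34.3% of all genes). Top1mt, the mitochondrial topoisomerase, averaged 1.35 ± 0.120 TPM in the controls, 2.28 ± 0.245 in the cKO embryos and 1.48 ± 0.156 in the dKO embryos (SD, n = 4 each), and every cKO embryo lay above every embryo of the other groups. Its difference in cKO against control was 0.48 (SE 0.08, limma adjusted p = 0.00217, after the scaling 0.00756). Rrm2b, a p53 target that supplies deoxynucleotides outside S phase, stood at 1.92 ± 0.479, 2.85 ± 0.437 and 1.50 ± 0.131 TPM in control, cKO and dKO (SD, n = 4 each). It differed by 0.41 in cKO against control (SE 0.12, limma adjusted p = 0.0240) and by -0.62 in dKO against cKO (SE 0.12, limma adjusted p = 0.00317). After the scaling its limma adjusted p values were 0.121 and 0.0308. Of the 5 tested regulators of mitochondrial biogenesis 2 were higher in cKO than in control (34.3% of all genes). Among them was Esrra, an orphan nuclear receptor, at 0.50 (SE 0.10, limma adjusted p = 0.00458, after the scaling 0.0179). With each library shifted by its median difference from the mean library, 0 of Mterf3, Lrpprc, Rpusd4, Top1mt, Rrm2b and Esrra passed in cKO against control (limma adjusted p from 0.0952 for Esrra to 0.623 for Rpusd4), and in dKO against cKO Lrpprc and Rrm2b did not pass either (limma adjusted p = 0.332 and 0.103).

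Marker genes of other cell types were examined beside these comparisons. In cKO against control 5 of 6 tested microglial markers were higher, 6 of 6 endothelial, 4 of 5 meningeal, 1 of 1 ventral telencephalic and 0 of 8 blood markers, and 0 of any of these lists were lower (limma adjusted p under 0.05, 34.3% of all genes higher). In dKO against cKO 6 of 6 microglial markers were lower, with 2 of 6 endothelial, 1 of 5 meningeal, 1 of 1 ventral telencephalic and 0 of 8 blood markers (38.8% of all genes lower), and 0 were higher. In dKO against control 1 meningeal marker, Col3a1, was higher and 0 others of these lists were called (1.79% of all genes higher). After the scaling 3 meningeal, 3 endothelial and 1 blood marker were higher there (5.44% of all genes higher). In cKO against control the scaling left 5 microglial, 4 endothelial, 3 meningeal and 0 ventral telencephalic markers higher (11.3% of all genes). In dKO against cKO it left 5 microglial markers lower and 0 of the other lists (8.28% of all genes lower). All 8 microglial markers listed were above 0 in every library, and their summed level was 9.71 to 11.2 TPM in control, 35.0 to 49.7 in cKO and 11.0 to 15.0 in dKO. All 7 endothelial markers were likewise above 0, with sums of 9.24 to 12.7, 19.2 to 25.2 and 11.9 to 19.7 TPM, and all 7 meningeal markers, with sums of 23.9 to 41.2, 43.7 to 51.9 and 37.7 to 55.1 TPM. The 9 blood markers, mostly globins, summed to 2051 to 3111 TPM in control, 2506 to 3469 in cKO and 2230 to 2857 in dKO, and overlapped between all groups. The 9 ventral telencephalic markers summed to 1.74 to 2.47, 3.68 to 5.31 and 1.68 to 3.79 TPM. The part of these cells in the values of mitochondrial and nuclear genes was not tested.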

How the data were processed

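RNA was measured in the dorsal telencephalon of 12 embryos, 4 per genotype. Per the labels' protocols, pallia went into Trizol for column extraction, and the series' design text gives a stranded total RNA kit. The submitters' processing notes name HISAT2 and mm10; the annotation, the quantification and the treatment of reads that fit several places are not given in the sources used here. The deposited values are TPM per gene symbol; the unit is inferred, since each of the authors' tables sums to 1000000 and has no header. TPM divides by length and keeps no depth, so precision is read from replicates alone.

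Groups came from the genotype labels. The test was limma 3.58.1 on log2(TPM + 1) (R 4.3.3; lmFit, eBayes with an intensity trend) in 1 fit of 3 groups over 11764 genes averaging at least 1 TPM, with Benjamini-Hochberg adjustment over all of them and a threshold of 0.05. Differences are on that scale, which understates changes of low genes. Tested on simulated data, the fit recovered known changes. Class sums have no test. Coordinates and sequences are from GENCODE M21 (GRCm38, mm10). Nuclear copies were found by blastn 2.17.0 between transcripts, with at least 98% identity; a copy is whole-length where it covers at least 98% of the gene.

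The members and lists were chosen with earlier results of these data known. 1 pallial marker is not reported here. Named are all members, Rrm2b, Tfam, Polrmt and Lrpprc, and per nuclear list the called gene with the largest change in cKO or dKO against control. Alternatives were a pseudocount of 0.1, no filter, a minimum mean of 5 TPM, median-shift centring, quantile normalization, protein-coding rescaling (equal sums of nuclear protein-coding genes, factors 0.798 to 1.10), sample weights, fits of 2 groups, a replicate block, no intensity trend and leaving out each embryo; summing copies and leaving out 3 libraries were added after seeing the data.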

Additional observations from a re-analysis of the deposited data

Results flagged for a closer look

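Over the members, class sums and sums with nuclear copies, 66 groups of 4 embryos were examined for a value set apart from the rest, by the gap to its neighbour divided by the group's range and set against Dixon's 95% limit for 4 values. 6 passed it, where chance would give about 3.3 (5% of groups). 3 of them rest on 1 library: dKO 2 was high for mt-Rnr1 (14817 TPM against 368 to 589 in the other dKO embryos, gap 0.985), for mt-Rnr2 (31075 against 3695 to 4150.0, gap 0.983) and for their sum (45892 against 4063 to 4739, gap 0.984). Control 1 was high for mt-Rnr1 (4998 TPM against 239 to 956, gap 0.849). Control 4 was low for mt-Co3 (112 TPM against 576 to 623, gap 0.908), a gene with a whole-length nuclear copy. cKO 4 was high for mt-Nd4l summed with Gm10222 (305 TPM against 188 to 206, gap 0.851).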

How the results depend on the processing

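Over 24 alternatives, 0 members were called in cKO against control or in dKO against control, and 39 and 41 of 360 values per comparison changed sign without being called (39 in dKO against cKO). In dKO against cKO, 1 member of 15 was called without the intensity trend (mt-Co1, limma adjusted p = 0.0379, 39.5% of all genes called). Again 1 was called with whole-length nuclear copies summed (mt-Co1, limma adjusted p = 0.0497, 39.4% of all genes called). That fit did not add Gm29216 to mt-Co1, whose difference stayed at -0.33. Without control 1, control 2 and dKO 2, 1 was called (mt-Atp8, limma adjusted p = 0.0453, 35.4% of all genes called). That call is a description, since dKO 2 was also the highest library for mt-Atp8. When each embryo was left out, 0 to 1 were called (without cKO 1: mt-Co1, limma adjusted p = 0.0493, 41.2% of all genes called). The cause of these calls was not tested. Summed ribosomal RNA in cKO against control was 0.48 without the 3 libraries and -0.58 with them. Of the nuclear list, calls in cKO against control were 14 as reported, 3 with protein-coding rescaling and 0 with median-shift centring. Of all genes, 35.4%, 13.1% and 6.68% were called in that order. In dKO against control the list had 0, 2 and 1 calls (5.19%, 9.18% and 8.43% of all genes). In dKO against cKO it had 15, 5 and 1 (39.4%, 9.68% and 5.93% of all genes). The transfer RNA class gave no value under any alternative because every value is 0.

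Replicate numbers repeat across genotypes without a stated meaning. Deviations of same-numbered embryos from their group means correlated little over all genes (from -0.0954 to 0.0745). Low correlations of this kind cannot exclude a shared litter, day or batch, so the meaning of the numbers stays unknown. With the replicate block, 0 members were called in each comparison, with 25.3%, 3.48% and 30.7% of all genes called, and the nuclear list had 7, 0 and 10 calls. Not every embryo correlated best with its own number. The unknown depth, the division of reads between genes and nuclear copies, and the absence of values below 94 bases limit what these tables can show.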
